A study of Arabidopsis thaliana with 10 samples.

Results

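The pilot experiment of this series, called Set1, asked which genes of Arabidopsis thaliana change within 2 h of jasmonate. It holds 4 of the 10 RNA-seq libraries, picked by their sample titles: 2 from untreated seedlings (ctrl) and 2 from seedlings exposed to jasmonate for 2 h (JA). All groups were whole wild-type Col-0 seedlings, 10 days old, grown on sucrose-containing agar in long days. For the JA groups the plate lids were taken off and methyl jasmonate was offered as vapour inside a closed clear box, whereas the ctrl groups are labelled as untreated. Whether the control plates were also opened and boxed, and at which hour the seedlings were collected, is not given in the sources used here. Each difference below is therefore one between these treated and untreated plates, and opening, enclosure and hormone cannot be told apart. The second experiment, Set2, held 3 ctrl and 3 JA libraries of the same kind and is set beside Set1 only where it helps to describe it.

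Jasmonate is a lipid-derived hormone that plants make when they are wounded or eaten. Its active form, the isoleucine conjugate, joins the F-box receptor COI1 to JAZ repressors, which are then degraded, and the freed MYC transcription factors switch on defence genes and the JAZ genes themselves. The hormone is also known to restrain growth of seedlings, and MYC factors bind the G-box, a motif also used by light and clock regulators. The genes that fell after JA are described first and at greater length than those that rose.

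Total expected counts of the Set1 libraries ranged from 12147941 to 17200426. Genes of the plastid and mitochondrial genomes and rRNA genes, 289 in all, were left out before scaling, because they took 25.8% and 20.7% of the counts in replicate 1 of ctrl and JA but 3.24% and 1.36% in replicate 2. The remaining nuclear totals lay between 11754121 and 16965911. On the log2 scale the correlation across genes was 0.9633 between the ctrl libraries and 0.9754 between the JA libraries, against 0.925 to 0.9415 between a ctrl and a JA library. Levels are CPM, counts scaled to a nuclear library total of 1e+06 after TMM scaling, and the values of a gene are always given for replicate 1 and then replicate 2. One count was worth between 0.05838 and 0.08689 CPM. The study calls its RNA-seq replicates biological, but whether they came from separate plates or days is not given in the sources used here, so the p-values measure the spread between these samples only. In whole seedlings, fewer cells of a type and less RNA per cell cannot be told apart.

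The tissue labels were compared with marker genes. The 10 shoot and stomatal markers summed to 25934 and 27004 CPM in ctrl and 18980 and 18720 CPM in JA. Most of this sum came from the photosynthesis gene RBCS1A, so it says little about the stomatal markers. Taken by gene, 7 of the 10 had a log2 fold change below 0 and 3 above it, from -1.17 to 0.81, and 1 was called lower. The 12 root markers were also present, at 121 and 108 CPM in ctrl and 67.8 and 85.9 CPM in JA, and 10 of them had a log2 fold change below 0. Seed storage genes, which seedlings of this age should lack, summed to at most 1.04 CPM in 3 libraries and to 14.8 CPM in JA replicate 1, where the cruciferin genes CRA1 and CRU3 stood at 10.1 and 4.28 CPM. A part of seed or root material in any result below was not tested.

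Of 19776 genes tested, 674 rose (3.41% of those tested) and 470 fell (2.38%) by edgeR's quasi-likelihood test, where a call needed both a 2-fold change and a Benjamini-Hochberg adjusted p no greater than 0.05. The falls were smaller than the rises. Their median log2 fold change was -1.49, against 1.83 for the rises and -0.00 for all genes tested. At least 4-fold changes numbered 115 among the falls and 294 among the rises, and at least 8-fold changes 32 and 145. Together the genes that fell made up 4.69% and 4.78% of the nuclear counts in ctrl and 1.87% and 1.89% in JA. The ctrl and JA libraries of every called gene did not overlap, which also holds for 50.1% of all genes tested. Another annotated gene overlaps 144 of the genes that fell and 150 of those that rose, so reads of the neighbour may enter their counts.

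Lists of 986 genes in 51 families and pathways were laid over these calls. They held 73 of the genes that fell and 141 of those that rose. The counts below for a list should be read against the shares of all genes, 3.41% higher and 2.38% lower. Genes of a list that did not reach the test are not part of them. The lists were chosen with earlier results of these data known, so a share above these is a description and not a test of enrichment.

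**Figure D1:**
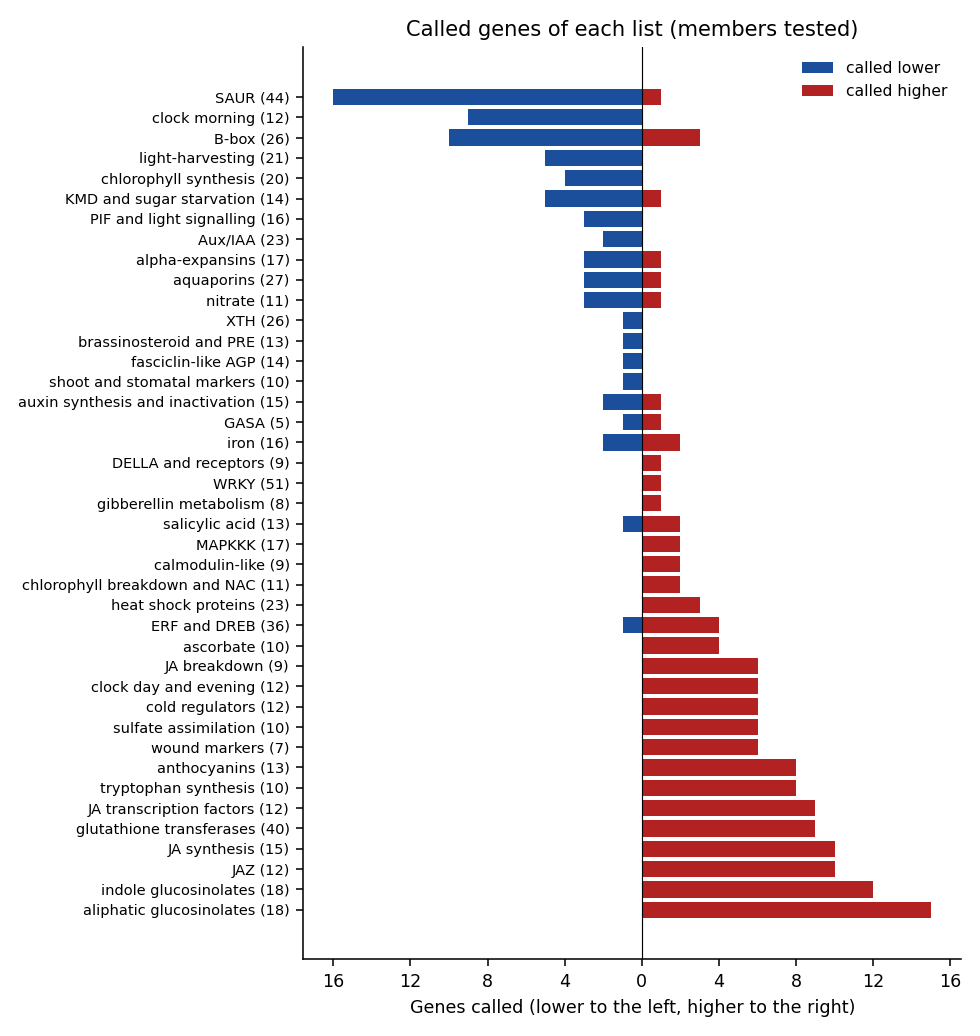
Number of genes called in Set1 in each list with at least 1 call; bars to the left are genes called lower after JA, bars to the right genes called higher, and the number of members tested is in brackets. SAUR, B-box and morning clock genes hold the most falls (16, 10 and 9), and aliphatic and indole glucosinolate genes the most rises (15 and 12).

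**Figure D2:**
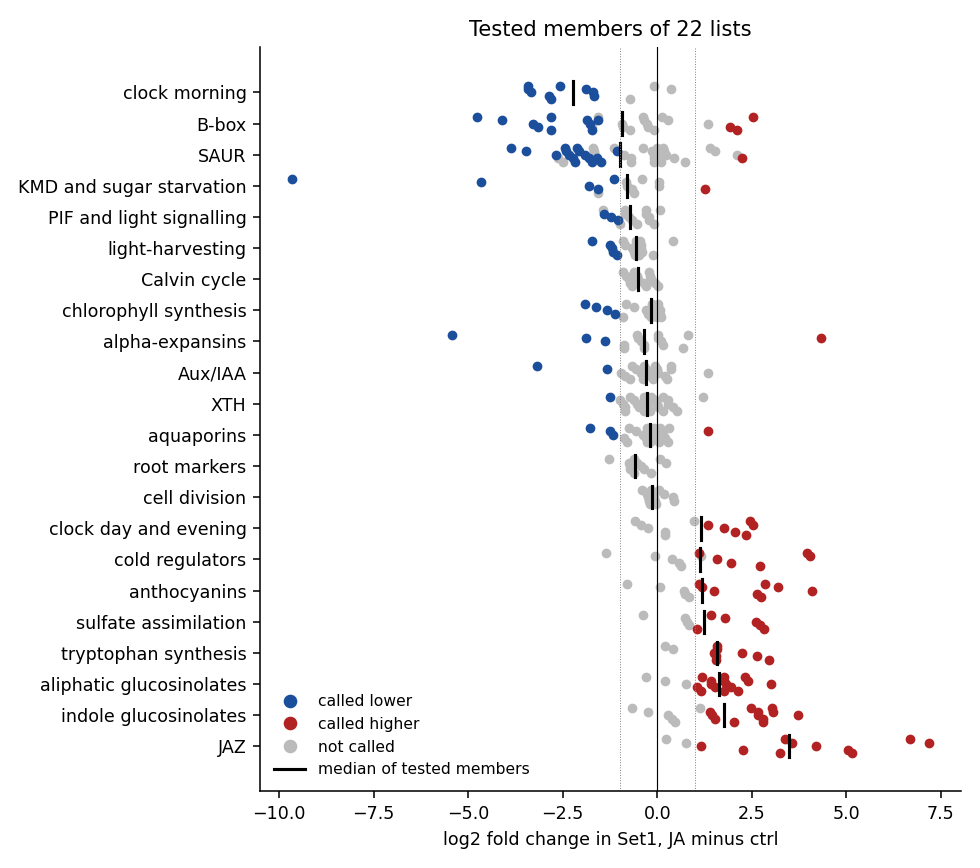
Log2 fold change (JA minus ctrl, edgeR) of the 392 tested member entries of 22 lists; dark blue marks genes called lower, red genes called higher and grey genes not called, the black bar is the median of the tested members and the dotted lines mark 2-fold. The morning clock list lies farthest to the left by its median (-2.23) and the JAZ list farthest to the right (3.47); the point at -9.66 is KMD3, which had no count after JA, so its fitted value is not a measured size.

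The circadian clock of plants is a loop of transcription factors that repress each other in turn. CCA1 and LHY peak at dawn and bind the evening element in the promoters of later genes, and PRR and evening-complex proteins repress CCA1 and LHY later in the day. G-boxes are known sites of MYC-type factors and evening elements of CCA1-type factors. The 250 bases before the annotated start of 8 genes are printed here: 5 genes that fell and have a G-box, and 3 evening-phased genes that rose and have an evening element. Each was picked as an example that holds a motif, so the set does not show how often a motif occurs. A part of these motifs in the changes was not tested. Capitals mark the G-box (CACGTG, a palindrome) and the evening element (AAAATATCT, or AGATATTTT where it lies on the other strand); both strands were searched, and neither motif contains the other. The sequences are from RefSeq, build TAIR10.1, and lie as follows: CCA1 at chr2:19245341-19245590 on the plus strand, PRR9 at chr2:19232357-19232606 on the plus strand, LNK3 at chr3:3923265-3923514 on the plus strand, FRO6 at chr5:20204596-20204845 on the minus strand, FRO7 at chr5:20208778-20209027 on the minus strand, TOC1 at chr5:24674713-24674962 on the plus strand, FKF1 at chr1:25508389-25508638 on the plus strand, LUX at chr3:17182792-17183041 on the plus strand.
CCA1: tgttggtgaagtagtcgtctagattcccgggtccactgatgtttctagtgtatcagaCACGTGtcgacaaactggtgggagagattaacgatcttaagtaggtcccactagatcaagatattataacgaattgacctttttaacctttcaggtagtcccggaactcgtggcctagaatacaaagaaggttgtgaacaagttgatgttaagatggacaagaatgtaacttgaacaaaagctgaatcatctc
PRR9: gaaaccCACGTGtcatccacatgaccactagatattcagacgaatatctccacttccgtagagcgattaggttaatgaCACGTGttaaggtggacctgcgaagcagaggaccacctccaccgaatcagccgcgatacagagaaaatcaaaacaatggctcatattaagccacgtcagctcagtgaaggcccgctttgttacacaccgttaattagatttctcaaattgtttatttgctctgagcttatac
LNK3: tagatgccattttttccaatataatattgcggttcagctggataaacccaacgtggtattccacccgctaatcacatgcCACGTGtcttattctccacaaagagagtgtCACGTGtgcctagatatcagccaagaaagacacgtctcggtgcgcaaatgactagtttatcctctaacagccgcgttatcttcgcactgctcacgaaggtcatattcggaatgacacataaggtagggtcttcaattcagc
FRO6: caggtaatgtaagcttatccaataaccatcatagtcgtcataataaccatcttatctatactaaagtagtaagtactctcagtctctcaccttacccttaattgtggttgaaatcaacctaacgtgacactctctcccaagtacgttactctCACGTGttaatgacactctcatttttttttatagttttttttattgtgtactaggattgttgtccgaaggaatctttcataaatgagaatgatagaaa
FRO7: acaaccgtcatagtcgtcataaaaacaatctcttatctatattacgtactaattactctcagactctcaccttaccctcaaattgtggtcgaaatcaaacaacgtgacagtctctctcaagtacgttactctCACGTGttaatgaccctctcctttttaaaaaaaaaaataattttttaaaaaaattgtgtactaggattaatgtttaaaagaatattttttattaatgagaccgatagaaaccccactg
TOC1: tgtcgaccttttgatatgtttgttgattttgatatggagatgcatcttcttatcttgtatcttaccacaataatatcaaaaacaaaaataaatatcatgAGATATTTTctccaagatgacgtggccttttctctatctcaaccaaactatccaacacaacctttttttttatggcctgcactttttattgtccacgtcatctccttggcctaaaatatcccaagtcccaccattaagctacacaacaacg
FKF1: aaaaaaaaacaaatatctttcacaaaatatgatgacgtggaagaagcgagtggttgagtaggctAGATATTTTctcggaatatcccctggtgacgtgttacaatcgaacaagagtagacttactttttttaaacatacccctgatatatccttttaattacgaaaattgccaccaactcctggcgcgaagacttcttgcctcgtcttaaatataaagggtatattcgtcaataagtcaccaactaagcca
LUX: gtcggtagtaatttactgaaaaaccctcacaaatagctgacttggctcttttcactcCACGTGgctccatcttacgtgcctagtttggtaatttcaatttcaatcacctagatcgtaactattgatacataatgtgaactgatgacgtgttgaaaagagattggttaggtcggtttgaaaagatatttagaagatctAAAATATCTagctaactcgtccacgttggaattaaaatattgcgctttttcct

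A G-box stood in 7.38% of the 250-base windows of 19764 tested genes, in 10.6% of the genes that fell and in 17.1% of those that rose. The evening element stood in 2.53% of all windows, in 3.62% of the genes that fell and in 6.7% of those that rose. Another 2 motifs were searched and lay near the share of all windows. The CCA1 site (AAAAATCT) stood in 6.7% of all, 6.17% of the genes that fell and 6.1% of those that rose. The auxin response element (TGTCTC) stood in 10.6%, 10.9% and 10.9%. Among the clock genes, G-boxes were found before 6 of 12 morning genes and 3 of 12 evening genes, and evening elements before 5 of 12 evening genes and none of 12 morning genes. PRR9 and LNK3 each had G-boxes at 2 positions, 244 and 172 bases before the start of PRR9 and 171 and 141 bases before that of LNK3. In the neighbouring ferric reductase genes FRO6 and FRO7 the G-box lay 98 and 118 bases before the start, inside a run of 29 identical bases. LUX held both motifs. These are matches of letters, which do not show that a factor binds there.

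Morning-phased clock genes were lower after JA. Of the 12 listed, all tested, 9 fell, 11 had a log2 fold change below 0, and their summed level was 374 and 444 CPM in ctrl and 122 and 142 CPM in JA. CCA1 (AT2G46830, chromosome 2, 19245591 to 19248915, plus strand, 8 exons), the dawn MYB factor, was at 25.9 and 32.1 CPM in ctrl and at 4.13 and 4.09 CPM in JA, a log2 fold change of -2.82 (SE 0.21, adjusted p 1.8e-04). LHY (AT1G01060), its closest relative, was at 10 and 15.2 CPM in ctrl and 1.5 and 1.93 CPM in JA (-2.86, SE 0.31, adjusted p 0.00101). Both JA libraries lay far below both ctrl libraries for each of these partners, while groups without overlap were found for 50.1% of all genes tested.

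PRR9 (AT2G46790), the first of the pseudo-response regulators to appear in the day, showed the largest fall among the PRR genes, from 28.8 and 33.4 CPM to 2.41 and 3.68 CPM (-3.33, SE 0.25, adjusted p 1.7e-04). Its counts were not whole in 3 libraries, so ambiguous reads enter them. The LNK genes encode co-regulators that act with the RVE activators. LNK3 (AT3G12320) was at 21.3 and 20.8 CPM in ctrl and 2.55 and 1.4 CPM in JA (-3.43, adjusted p 3.1e-04), LNK4 fell by 2.57 on the log2 scale (adjusted p 8.5e-04) and LNK2 by 1.89 (adjusted p 0.00279). LNK1 was at 71.9 and 80.6 CPM in ctrl and 39.7 and 52.2 CPM in JA and did not pass (-0.73, adjusted p 0.0683). Of the RVE genes, which encode MYB factors related to CCA1, RVE1 fell from 13.8 and 10.8 CPM to 0.901 and 1.34 CPM (-3.42, adjusted p 4.2e-04). RVE4 fell by 1.67 (adjusted p 0.00125) and RVE8, the afternoon activator, by 1.71 (adjusted p 0.0182, and 0.0566 without JA replicate 1). RVE2 (0.37, adjusted p 0.594) and RVE6 (-0.09, adjusted p 0.855) did not pass.

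Genes of the later day and evening moved the other way or did not pass. Of 12 listed, 6 rose, with a median of 1.16 for the list. TOC1 (AT5G61380, chromosome 5, 24674963 to 24678550, plus strand, 6 exons), the evening repressor of CCA1 and LHY, was at 32.9 and 39.3 CPM in ctrl and 92.8 and 90.1 CPM in JA (1.34, SE 0.18, adjusted p 0.00337). PRR3, which stabilises TOC1 protein, rose from 5.67 and 5.21 CPM to 30.3 and 33.3 CPM (2.54, adjusted p 1.9e-04). FKF1, a blue-light receptor that times flowering, rose from 10.4 and 11.3 CPM to 53 and 56.9 CPM (2.34, adjusted p 2.3e-04).

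Evening-complex genes were split. ELF4 rose from 8.38 and 6.08 CPM to 43.6 and 36 CPM (2.46, adjusted p 5.0e-04), and LUX, its DNA-binding partner, rose by 1.75 (adjusted p 9.2e-04). BOA, the close relative of LUX, was low and rose from 1.31 and 1.16 CPM to 5.15 and 5.1 CPM (2.06, adjusted p 0.00768). ELF3, the scaffold of the complex, was at 29.2 and 39.6 CPM in ctrl and 41.2 and 37.9 CPM in JA, where the groups overlapped (0.20, adjusted p 0.66). GI (0.19), ZTL (-0.25), CHE (-0.43) and PRR7 (-0.60) had adjusted p-values between 0.149 and 0.711. PRR5 had an adjusted p of 0.0182 but a log2 fold change of 0.98, just under the 2-fold limit.

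**Figure D3:**
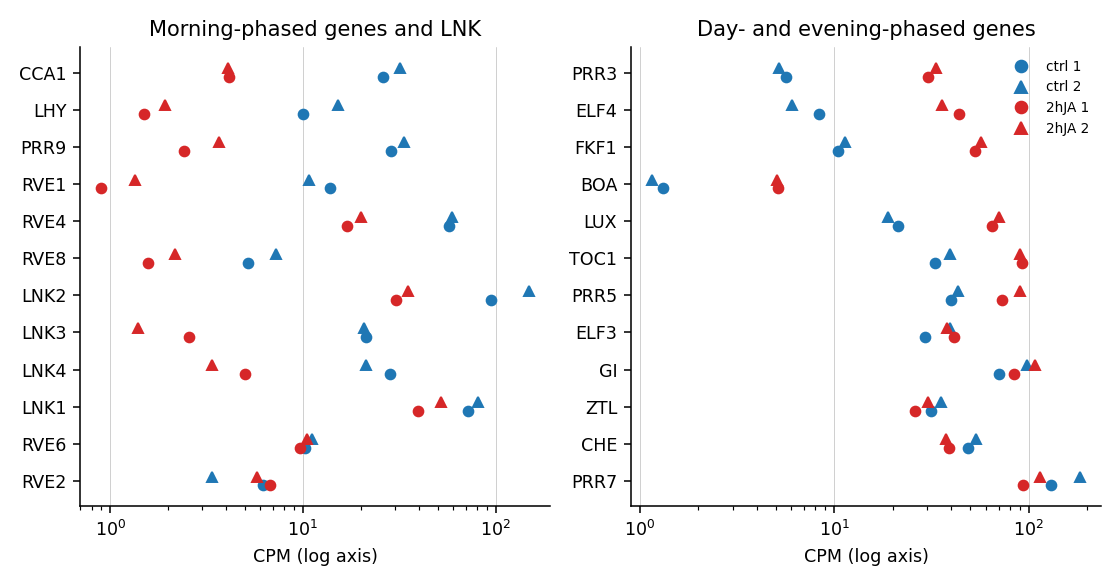
CPM of the 24 clock genes in each Set1 library on a log axis, ctrl in blue and JA in red, circles for replicate 1 and triangles for replicate 2. In the left panel the red symbols of 10 of 12 genes lie left of the blue ones, the 9 genes that fell and LNK1. In the right panel those of 7 of 12 genes lie right of them, the 6 genes that rose and PRR5. Those of 3 genes there, ZTL, CHE and PRR7, lie left of them. The groups also did not overlap for 50.1% of all genes tested.

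The clock genes of Set2 are given beside these values because the hour of collection is not given for either experiment. In Set2, 7 of 12 morning genes fell and 5 of 11 tested evening genes rose, with medians of -1.17 and 0.71. Control levels of the dawn genes differed widely between the experiments: CCA1 averaged 147 CPM and LHY 104 CPM in the Set2 controls, against 29 and 12.6 CPM in Set1. A part of the collection hour in the clock results was not tested. CCA1 changed by -1.68 and LHY by -1.95 in Set2, and PRR9 by -0.75 (adjusted p 0.0964). The difference between the experiments had an adjusted p of 0.185 for CCA1, 0.425 for LHY and 0.054 for PRR9, so none passed.

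B-box proteins are zinc-finger regulators of light signalling, flowering and greening. Of 31 genes, 26 were tested, of which 10 fell and 3 rose, and 20 had a log2 fold change below 0 (median -0.93). BBX16 (AT1G73870) was at 27.6 and 20.5 CPM in ctrl and 1.58 and 1.23 CPM in JA, a log2 fold change of -4.11 (SE 0.27, adjusted p 1.1e-04). BBX25, a partner of HY5 in seedlings, fell from 37.7 and 41.1 CPM to 5.33 and 3.62 CPM (-3.15, adjusted p 1.6e-04). BBX28, a negative regulator of seedling light responses, fell from 42.1 and 39.4 CPM to 5.86 and 5.72 CPM (-2.81, adjusted p 1.1e-04). For each of these genes both JA libraries lay far below both ctrl libraries, while groups without overlap were found for 50.1% of all genes tested.

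BBX2 and BBX3, the nearest relatives of the flowering regulator CONSTANS and also known as COL1 and COL2, fell by 3.28 and 2.81 on the log2 scale (adjusted p 2.3e-04 and 1.6e-04). CONSTANS itself, BBX1, had at most 0.782 CPM in any library and was not tested. BBX27 fell from 52.8 and 44.3 CPM to 13.3 and 13.4 CPM (-1.86, adjusted p 8.0e-04), and BBX18 fell by 1.73 (adjusted p 0.00229). The remaining falls kept their direction but lost the call in some fits that left out a library. BBX19 (-1.56) had adjusted p-values of 0.0613 without ctrl replicate 1 and 0.114 without JA replicate 2, and BBX29 (-1.79) one of 0.0546 without JA replicate 1. BBX32, with 1.15 and 1.13 CPM in ctrl and 0 and 0.0584 CPM in JA, did not pass without ctrl replicate 2 or without either JA library (adjusted p 0.0631 to 0.185). The rises were BBX7, from 6.24 and 8.78 CPM to 45.3 and 40.6 CPM (2.52, adjusted p 4.0e-04), BBX8 (2.11) and BBX13 (1.91).

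Light signalling genes outside this family fell in smaller number. Of 16 genes of the PIF, phytochrome, cryptochrome and shade-marker list, 15 had a log2 fold change below 0 and 3 fell, with 0 to 5 falls under other settings. PIF5, a growth-promoting bHLH factor, was at 68.3 and 96 CPM in ctrl and 27.8 and 33.9 CPM in JA (-1.41, SE 0.22, adjusted p 0.00735). PIF7 (-1.05, adjusted p 0.0166) and the shade marker HAT4 (-1.22, adjusted p 0.0194) fell too, and neither passed without JA replicate 2 (adjusted p 0.131 and 0.112). The blue-light receptor CRY1 was at 149 and 183 CPM in ctrl and 77.5 and 90.3 CPM in JA, a significant change of less than 2-fold (-0.98, adjusted p 0.0155). PIF4 (-0.31, adjusted p 0.433), PIF3 (0.08) and PHYB (-0.21) did not pass.

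Several regulators and light-response genes outside the lists were among the falls, chosen here after their values were seen. JAC1, needed for chloroplast movement, fell from 38.8 and 45.4 CPM to 5.18 and 5.78 CPM (-2.93, adjusted p 1.2e-04). RPT2, a phototropism protein, fell from 205 and 202 CPM to 38.5 and 38.5 CPM (-2.40, adjusted p 1.3e-04). The phytochrome kinase substrates PKS4 and PKS2 fell as well, PKS4 (AT5G04190) from 3.37 and 4.87 CPM to 0.0751 and 0.175 CPM and PKS2 from 25 and 22.7 CPM to 4.36 and 5.55 CPM. GLK2, an activator of chloroplast genes, fell from 137 and 185 CPM to 34 and 41.8 CPM (-2.08, adjusted p 8.8e-04), and SIGE, a nuclear-encoded sigma factor of the plastid polymerase, from 40.9 and 40.8 CPM to 7.21 and 10.1 CPM (-2.23, adjusted p 6.2e-04). Like every gene that fell, these had JA libraries below both ctrl libraries, and the groups did not overlap for 50.1% of all genes tested.

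More transcription factor genes outside the lists, picked in the same way, are given next. HBI1, which encodes a bHLH factor, was at 73.4 and 68.5 CPM in ctrl and 19.2 and 20 CPM in JA (-1.86, adjusted p 6.2e-04), BEE2 fell by 1.45 (adjusted p 0.00232) and BEE3 by 2.45 (adjusted p 0.00992). CIB1, a partner of the photoreceptor CRY2, had 1.9 and 1.12 CPM in ctrl and no count in either JA library, which makes it at least 15.4-fold lower against a floor of 3 counts over the group (adjusted p 0.0108, and 0.0505 without JA replicate 2). MYBL2, a repressor of anthocyanin synthesis, fell from 74.9 and 67.3 CPM to 16.7 and 12.6 CPM (-2.29, adjusted p 5.0e-04).

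Among called genes that averaged a log2 CPM of 1 or more, the 16 with the largest falls were plotted, which leaves out lower genes with large fitted falls such as BBX32 (-4.78). Apart from the clock, B-box and PKS4 genes already described, the 16 comprised KMD3, KMD1, EXPA8, GASA6, SAUR20, FRO6, FRO7, AT5G48490 and AT2G15020. AT2G15020 (chromosome 2, 6491425 to 6493512, minus strand), annotated only as an uncharacterized protein, was at 26.4 and 25.2 CPM in ctrl and 0.225 and 0.467 CPM in JA (-6.13, SE 0.31, adjusted p 5.7e-05). AT5G48490, a member of the lipid-transfer protein superfamily, fell from 88.9 and 77.2 CPM to 9.31 and 5.37 CPM (-3.51, adjusted p 2.3e-04). Like every gene that fell, none of the 16 had a JA library at the level of a ctrl library. The groups also did not overlap for 50.1% of all genes tested.

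**Figure D4:**
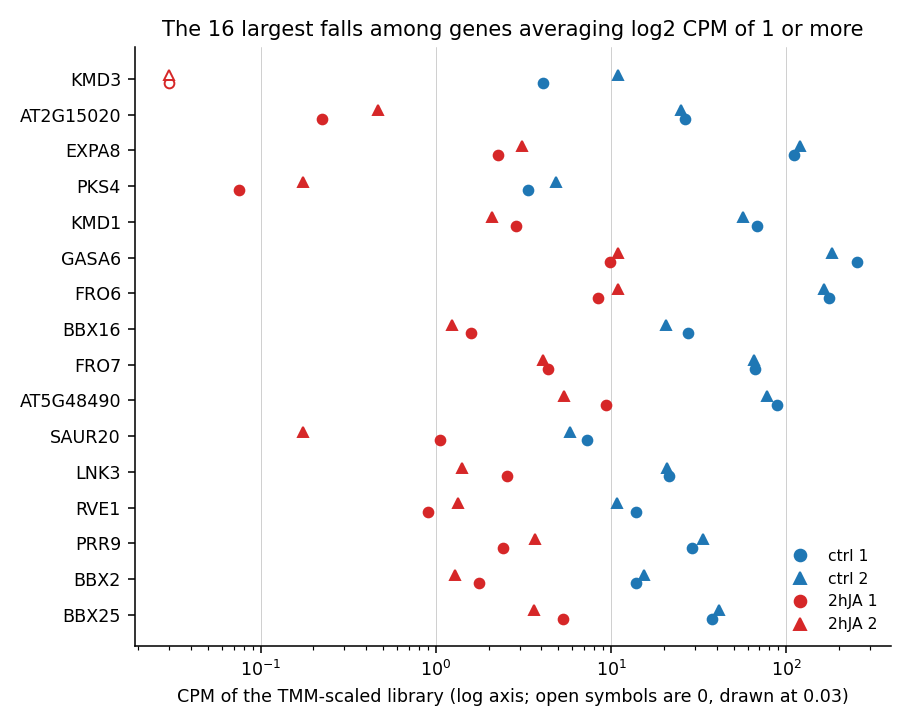
CPM in each Set1 library, on a log axis, of the 16 genes with the largest falls among called genes averaging a log2 CPM of 1 or more, ctrl in blue and JA in red, circles for replicate 1 and triangles for replicate 2, open symbols for a count of 0. KMD3 had no count in either JA library, and EXPA8, at 111 and 120 CPM in ctrl, stood at 2.25 and 3.09 CPM after JA.

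Expansins loosen the cell wall during growth. Of 25 alpha-expansin genes, 17 were tested, of which 3 fell and 1 rose. EXPA8 (AT2G40610) fell by 5.42 on the log2 scale (SE 0.24, adjusted p 5.7e-05), the largest fall of the family. EXPA1 fell from 194 and 219 CPM to 46.3 and 64.9 CPM (-1.89, adjusted p 0.0012), and EXPA11 fell from 44 and 39.4 CPM to 15.5 and 16.2 CPM (-1.39, adjusted p 0.00255). EXPA16 went the other way, from 1.56 and 1.22 CPM to 27.9 and 28.9 CPM (4.34, SE 0.24, adjusted p 6.2e-05). The 13 others lay between -0.88 and 0.82 and did not pass, among them EXPA6 (-0.88, adjusted p 0.0188, under 2-fold) and EXPA4 (0.09), so the family did not move as one.

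SAUR genes encode small auxin-induced proteins that promote cell expansion. Of 79 SAUR genes, 44 were tested, of which 16 fell and 1 rose (median -0.98). SAUR16 fell from 42.3 and 24.2 CPM to 8.79 and 6.07 CPM (-2.17, SE 0.31, adjusted p 0.00431). SAUR6 fell from 40.7 and 26 CPM to 12.2 and 9.87 CPM (-1.60, adjusted p 0.00737). Many of the others were low. SAUR20 was at 7.31 and 5.82 CPM in ctrl and 1.05 and 0.175 CPM in JA (-3.48, SE 0.59, adjusted p 0.00992), and SAUR22 at 1.89 and 3.21 CPM in ctrl and 0.15 and 0.175 CPM in JA (-3.88, SE 0.61, adjusted p 0.00693).

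Neighbouring SAUR genes in 2 runs, singled out after their values were seen, held 11 of the 16 falls. On chromosome 1 all 6 tested genes of a cluster from 10301377 to 10323239 (SAUR62 to SAUR66 and SAUR68) fell, with log2 fold changes from -2.69 to -1.49. On chromosome 5, 5 of the 6 genes of a cluster from 5962773 to 5984308 (SAUR19 to SAUR24) fell. Genes of a cluster resemble each other, and for SAUR21, SAUR24, SAUR63 and SAUR68 the counts were not whole, so ambiguous reads enter them. The number of SAUR genes that fell depended on single libraries, with 9 without ctrl replicate 1 and 6 without JA replicate 2. SAUR71, the only rise, was also lost in 3 of the 4 fits that left out a library (adjusted p from 0.117 to 0.187).

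Other growth families held few calls. Of 23 tested Aux/IAA genes, which encode repressors of auxin responses, IAA1 fell from 11.9 and 9.64 CPM to 4.81 and 3.85 CPM (-1.32, adjusted p 0.0144) and IAA29 from 2.38 and 2 CPM to 0.3 and 0.175 CPM (-3.19, adjusted p 0.0118). Without JA replicate 2 their adjusted p-values were 0.0841 and 0.111. Of 5 tested GASA genes, small gibberellin-regulated peptides, GASA6 (AT1G74670) fell from 252 and 181 CPM to 9.84 and 11 CPM (-4.37, SE 0.24, adjusted p 6.2e-05), although it overlaps AT1G74675 and its counts were not whole in 2 libraries. GASA5 rose by 1.09 and lost the call without ctrl replicate 2 (adjusted p 0.0691) or JA replicate 2 (0.2).

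Among 26 tested XTH genes, whose enzymes cut and rejoin xyloglucan, only XTH6 fell, from 31 and 34.2 CPM to 13.7 and 13.6 CPM (-1.26, adjusted p 0.00396). PRE6, an atypical bHLH gene, was the only call among 13 brassinosteroid and PRE genes (-1.42, adjusted p 0.00675), and FLA9 the only one among 14 fasciclin-like arabinogalactan genes (-1.38, adjusted p 0.00371). Without ctrl replicate 2, 3 XTH and 2 fasciclin-like genes fell. Enzymes that inactivate auxin were divided: the conjugating enzyme genes GH3.6, from 54.6 and 72.9 CPM to 19.2 and 19.3 CPM (-1.72, adjusted p 0.00183), and GH3.5 (-1.36, adjusted p 0.0035) fell, and the auxin oxidase gene DAO1 rose from 7.23 and 5.65 CPM to 21.4 and 26.5 CPM (1.89, adjusted p 0.00168). Of 27 tested aquaporin genes, the vacuolar TIP2;1 fell from 416 and 423 CPM to 180 and 169 CPM (-1.26, adjusted p 0.00199), NIP6;1 fell by 1.77, and PIP2;3 rose by 1.33. PIP2;4 fell by 1.17 and did not pass without JA replicate 1 or 2 (adjusted p 0.0814 and 0.0589).

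No gene was called by edgeR's quasi-likelihood test in the lists of cell division genes (14 tested, 2 at an unadjusted p of at most 0.05), A- and B-type cyclins (18 and 0), ribosomal proteins (47 and 1) and cellulose synthases (9 and 2). DESeq2 and limma called none of them either. CYCB1;2, a mitotic cyclin, was at 47.3 and 59 CPM in ctrl and 44.8 and 42.8 CPM in JA (-0.28, adjusted p 0.47). CESA3 of the primary wall was at 228 and 299 CPM in ctrl and 251 and 376 CPM in JA, where the groups overlapped (0.25, adjusted p 0.615). The medians of these lists were -0.13, -0.10, 0.19 and 0.25.

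Photosynthesis genes were shifted by less than 2-fold in most cases, but they take a large share of the counts. The 21 light-harvesting genes, whose proteins bind the antenna chlorophyll, summed to 127733 and 130684 CPM in ctrl and to 81000 and 81225 CPM in JA. Of these genes 20 had a log2 fold change below 0 (median -0.57) and 5 fell at least 2-fold, with 1 to 5 under the other settings. LHCB2.3 (AT3G27690) fell from 3154 and 3112 CPM to 928 and 947 CPM (-1.74, SE 0.13, adjusted p 1.5e-04). Its relatives LHCB2.2 (-1.25, adjusted p 6.0e-04) and LHCB2.1 (-1.17, adjusted p 7.7e-04) fell too, as did LHCB1.4 (-1.08) and LHCB4.2 (-1.20). LHCB1.3 was at 24533 and 23558 CPM in ctrl and 17835 and 17483 CPM in JA, a significant change below 2-fold (-0.45, adjusted p 0.0173).

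Many LHCB genes are close copies, and the counts of LHCB1 and LHCB2 genes were not whole, so that the division of reads among copies is uncertain while the sum is less so. The exception in direction was LHCB7, with a log2 fold change above 0 (0.42, adjusted p 0.265). Calvin cycle genes gave a like picture without a call: 14 of 15 were below 0, their median was -0.52, and 9 had p-values of 0.05 or less before adjustment, with none called by DESeq2 or limma. RCA, the Rubisco activase gene, was at 7649 and 8820 CPM in ctrl and 4332 and 4511 CPM in JA (-0.90, adjusted p 0.00265, under 2-fold), and the Rubisco small subunit gene RBCS1A at 18682 and 19148 CPM in ctrl and 15042 and 14396 CPM in JA (-0.36, adjusted p 0.0459).

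In chlorophyll synthesis 4 of 20 genes fell, and the list as a whole lay near 0 (median -0.16). CAO, which makes chlorophyll b, fell from 298 and 358 CPM to 103 and 109 CPM (-1.63, SE 0.17, adjusted p 9.4e-04). PORA, a protochlorophyllide reductase of etiolated seedlings, fell from 11.5 and 9.56 CPM to 2.7 and 2.86 CPM (-1.91, adjusted p 0.00255), and GUN4, an activator of magnesium chelatase, from 229 and 205 CPM to 92.5 and 81.1 CPM (-1.32, adjusted p 0.00265). HEMA1, which opens the pathway, fell by 1.12 (adjusted p 0.00533) and was just under 2-fold without JA replicate 1 (-0.99). CHLH, a chelatase subunit, was at 1960 and 2672 CPM in ctrl and 1136 and 1320 CPM in JA (-0.92, adjusted p 0.0173, under 2-fold). CHLI1 (0.08), GSA2 (-0.00) and PORC (-0.07) did not pass.

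KMD genes encode F-box proteins that mark cytokinin response regulators and enzymes of phenylpropanoid synthesis for degradation, and the list joined them with genes known to rise in sugar starvation. Of 14 genes 5 fell and 1 rose. KMD1 (AT1G80440, chromosome 1, 30241452 to 30243176, plus strand, 1 exon) fell from 68.2 and 56.9 CPM to 2.85 and 2.1 CPM (-4.67, SE 0.25, adjusted p 5.7e-05). KMD3 (AT2G44130) had 4.09 and 10.9 CPM in ctrl and no count in JA, at least 75-fold lower against a floor of 3 counts over the group. KMD3 overlaps AT2G44140, its counts were not whole in 2 libraries, and it was at 0 in all Set2 libraries.

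The family was not uniform, since KMD2 rose from 5.42 and 5.39 CPM to 11.5 and 14.2 CPM (1.25, adjusted p 0.0115, and 0.0803 without JA replicate 2) and KMD4 overlapped between groups (-0.41, adjusted p 0.607). The starvation genes DIN1 (-1.80, adjusted p 0.0145), DIN10 (-1.14, adjusted p 0.00732, and 0.0535 without JA replicate 1) and TPS11, a trehalose-phosphate synthase of class II, from 42 and 48.2 CPM to 15.1 and 15.4 CPM (-1.57, adjusted p 0.00154), fell. ASN1 did not pass (-1.56, adjusted p 0.0679). Outside the list and chosen after their values were seen, the wall hydrolase gene BXL1 fell from 91.2 and 110 CPM to 12.8 and 11.3 CPM (-3.06, adjusted p 1.1e-04), the kinase subunit gene AKINBETA1 by 1.82 (adjusted p 6.8e-04), the sugar carrier genes STP1 and SWEET2 by 1.67 and 2.07, and the plastid co-chaperone gene J11 from 194 and 191 CPM to 28 and 29.2 CPM (-2.75, adjusted p 9.0e-05).

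Iron and nitrate genes gave a few large changes. Of 16 tested iron genes 2 fell and 2 rose, and of 11 tested nitrate genes 3 fell and 1 rose. FRO6 (AT5G49730), a ferric reductase of green tissue, fell from 175 and 165 CPM to 8.41 and 11 CPM (-4.13, SE 0.21, adjusted p 5.7e-05), and FRO7 (AT5G49740), the chloroplast ferric reductase next to it, from 66.6 and 65.2 CPM to 4.36 and 4.09 CPM (-3.96, SE 0.20, adjusted p 5.7e-05). Neither gene had whole counts in any Set1 library, and which transcripts share these reads was not tested. FRO2, FRO3 and FRO8 did not pass (0.35, -0.35 and 0.17), nor did the root iron transporter IRT1 (-0.40, adjusted p 0.54). BHLH100, a regulator of iron uptake, had no count in ctrl and 0.977 and 1.23 CPM in JA, at least 8.82-fold higher, but its adjusted p was 0.0724 without JA replicate 1.

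NIA2, the main nitrate reductase gene, fell from 458 and 592 CPM to 119 and 184 CPM (-1.79, SE 0.24, adjusted p 0.0033), while NIA1 did not pass (-0.37, adjusted p 0.463). The nitrogen-response repressor genes LBD37, from 82.9 and 81.1 CPM to 30.9 and 30.9 CPM (-1.41, adjusted p 0.00207), and LBD39 (-1.14, adjusted p 0.0096, and 0.0803 without JA replicate 2) fell, and LBD38 did not pass (-0.27). NRT2.1, a nitrate transporter gene, rose from 0.657 and 0.521 CPM to 2.7 and 5.49 CPM (2.79, adjusted p 0.0133, and 0.158 without JA replicate 2). CAT2, the peroxisomal catalase gene, fell from 607 and 643 CPM to 252 and 273 CPM (-1.25, adjusted p 0.00194). RAP2.8, an AP2-type repressor gene, was the only fall among 36 tested ERF and DREB genes and relatives, from 43.2 and 40.1 CPM to 10.4 and 10.3 CPM (-2.01, adjusted p 4.3e-04), with 2 falls without ctrl replicate 2.

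The rises are given more briefly. Of 12 tested JAZ genes 10 rose (median 3.47), of 15 JA synthesis genes 10 (median 2.98), of 9 tested JA breakdown genes 6 (median 2.96) and of 7 wound marker genes 6 (median 4.51). AOC1, an allene oxide cyclase gene of JA synthesis, rose from 27.7 and 26.6 CPM to 579 and 765 CPM (4.63, SE 0.21, adjusted p 5.7e-05). JOX2 (AT5G05600), a jasmonate oxidase gene, rose from 4.02 and 2.78 CPM to 159 and 179 CPM (5.62, SE 0.25, adjusted p 5.7e-05), so genes of both making and breaking down the hormone rose. MYC2 rose from 14.2 and 22.6 CPM to 189 and 293 CPM (3.72, SE 0.31, adjusted p 2.7e-04), with counts that were not whole and an overlapping gene. CORI3, a cystine lyase gene used as a wound marker, rose from 17.4 and 24.3 CPM to 617 and 831 CPM (5.12, SE 0.26, adjusted p 5.7e-05).

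Several large fold changes belonged to genes nearly silent in ctrl. NATA1, an acetyltransferase gene of defence metabolism, had no count in ctrl and 29.6 and 46.1 CPM in JA, at least 307-fold higher against 3 counts over the group. TPS04, the geranyllinalool synthase gene of volatile terpene synthesis, was at least 130-fold higher, with 10.2 and 21.3 CPM in JA. CSLA01, a mannan synthase family gene, had a single count in the ctrl libraries and 37.6 and 63.3 CPM in JA, a ratio of 1233 with a 95% counting interval of 221 to 48742. FAMT, a methyltransferase gene, rose from 0.739 and 0.869 CPM to 254 and 342 CPM (8.52, SE 0.30, adjusted p 4.5e-05). MAPKKK21 was at least 51.4-fold and AT1G71000 at least 53.7-fold higher. ILL5, a gene of the amidohydrolase family, had 1 count in ctrl and a ratio of 300 (53.6 to 11893). CYP71A13, a camalexin synthesis gene, was uneven in JA, with 1.02 and 10.8 CPM, and its call was lost when organelle and rRNA genes were kept. In Set2 the log2 fold changes were 1.53 for NATA1, 4.61 for TPS04, 7.35 for ILL5 and -0.07 for CYP71A13. None of these 4 was among the genes whose change differed between the experiments by the test given below.

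Pathways of defence metabolism held many rises. Of 18 aliphatic glucosinolate genes 15 rose (median 1.64), of 18 tested indole glucosinolate genes 12 (median 1.78), of 10 tryptophan synthesis genes 8 (median 1.57) and of 10 sulfate assimilation genes 6 (median 1.24). In Set2, in the same order, 6 of 18, 9 of 19, 7 of 10 and 4 of 10 tested genes rose, with medians of 0.81, 0.93, 1.42 and 0.72. Only IGMT2 of these lists passed the test of a difference between the experiments. These pathways feed each other, since tryptophan and activated sulfate are used to build glucosinolates. IGMT5, which modifies indole glucosinolates, rose from 117 and 80.3 CPM to 1106 and 1483 CPM (3.72, SE 0.24, adjusted p 1.1e-04). SOT17, a sulfotransferase gene of the last step in the aliphatic branch, rose from 20 and 18.7 CPM to 135 and 173 CPM (SE 0.20 on the log2 scale, adjusted p 1.2e-04). APK1, an APS kinase gene that makes the sulfate donor, rose from 64.1 and 59.5 CPM to 359 and 447 CPM (2.71, adjusted p 1.2e-04). ASA1, the anthranilate synthase gene at the head of tryptophan synthesis, rose by 2.94 (adjusted p 1.6e-04).

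Of 13 tested anthocyanin genes 8 rose (median 1.17). In Set2 1 of these 13 was called higher (median 0.59), and none passed the test of a difference between the experiments. PAP1, a MYB activator of the pathway, rose from 3.45 and 2.35 CPM to 46.3 and 52.8 CPM (4.09, SE 0.25, adjusted p 7.9e-05). DFR, a late pathway enzyme, rose from 7.47 and 10.2 CPM to 74.5 and 87.4 CPM (adjusted p 1.5e-04), and LDOX, which follows it, from 14.8 and 13.2 CPM to 87.5 and 87.7 CPM (2.64, adjusted p 1.4e-04). With the fall of MYBL2, an activator and a repressor of this pathway moved in opposite directions. Of the other listed regulators TT8 rose (2.73), and EGL3 (0.07), GL3 (0.72) and TTG1 (-0.81) were not called. In the ascorbate list 4 of 10 tested genes rose, with VTC5, an enzyme gene of ascorbate synthesis, at 47.1 and 41.8 CPM in ctrl and 182 and 185 CPM in JA (2.04, adjusted p 3.1e-04).

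Of 12 listed genes of the cold response 6 rose (median 1.13). The regulator genes CBF1 (-0.06), CBF2 (-1.35) and DREB1A (0.56) were among those not called. COR15A, a protective protein of the chloroplast, rose from 62.2 and 45 CPM to 882 and 893 CPM (4.05, SE 0.21, adjusted p 5.7e-05). Outside the list, COR27, a regulator shared by cold response and clock, rose from 1.56 and 0.608 CPM to 42 and 43.5 CPM (5.28, SE 0.33, adjusted p 9.0e-05). Large families differed in their share of rises, against 3.41% of all genes tested. Of 51 tested WRKY genes 1 rose (1.96%; WRKY18, 2.28). Of 36 ERF and DREB genes 4 rose (11.1%; ERF2 by 4.13), and of 17 MAPKKK genes 2 (11.8%). Of 40 glutathione transferase genes 9 rose (22.5%), with GSTU5 from 73 and 48.6 CPM to 378 and 392 CPM (2.66, adjusted p 3.0e-04). Without ctrl replicate 1 the glutathione transferase rises numbered 16, the ERF and DREB rises 7 and the WRKY rises 3, and the ERF and DREB rises numbered 2 without either JA library. Of 13 salicylic acid genes EDS5 and PR5 rose (2.56 and 1.56) and PAD4 fell by 1.36 (adjusted p 0.0056). The lists of touch (6 tested), ethylene (16) and type-A response regulator genes (9) held no call by edgeR's quasi-likelihood test, DESeq2 or limma, with 3, 4 and 4 genes at an unadjusted p of at most 0.05.

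The Set2 libraries held fewer nuclear counts than those of Set1, 6318535 to 7551984. Set2 was fitted alone by the same rule. It called 364 genes higher (1.9%) and 145 lower (0.756%) of 19172 tested. Of the 470 genes that fell in Set1, 452 were tested in Set2, 415 of these were below 0 there, against 47.2% of all genes tested in both, and 114 were called lower. Of the 674 that rose in Set1, 644 were tested, 620 were above 0 and 309 were called higher. Without ctrl replicate 2 of Set2 its own falls numbered 91 and those shared with Set1 70, and without JA replicate 1 of Set2 96 and 73. No gene was called in opposite directions by edgeR's quasi-likelihood test, and 1 of the falls and 2 of the rises lay on the other side of 0 in Set2 at an unadjusted p of at most 0.05. The median change in Set2 was -0.77 for the Set1 falls and 1.11 for the Set1 rises. Of the falls described above, EXPA8 changed by -3.08, AT2G15020 by -2.26, KMD1 by -1.95 and BBX16 by -1.90 in Set2 and all 4 were called.

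Whether a response differed between the experiments was tested as the set by treatment interaction in all 10 libraries. Of 20129 genes, 6 passed (0.0298%), and 1504 stood at 0.05 or less before adjustment. No gene passed without ctrl replicate 2 of Set1, without ctrl replicate 1 or JA replicate 3 of Set2, or when organelle and rRNA genes were kept, where 1521, 1397, 1595 and 1438 genes stood at an unadjusted p of 0.05 or less. BBX28 and JAC1 fell more in Set1, by 1.82 (adjusted p 0.0295) and 1.81 (adjusted p 0.0468) on the log2 scale. For 4 lists with falls the medians were nearer to 0 in Set2: -0.28 for B-box, -0.67 for SAUR, -0.20 for light-harvesting and -0.45 for KMD and sugar genes. Each median is over the members tested in that experiment, which differ for SAUR (44 in Set1, 35 in Set2) and KMD and sugar genes (14 and 13). Apart from BBX28, no gene of these lists passed the interaction test, so a difference between the experiments was not shown for them.

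**Figure D5:**
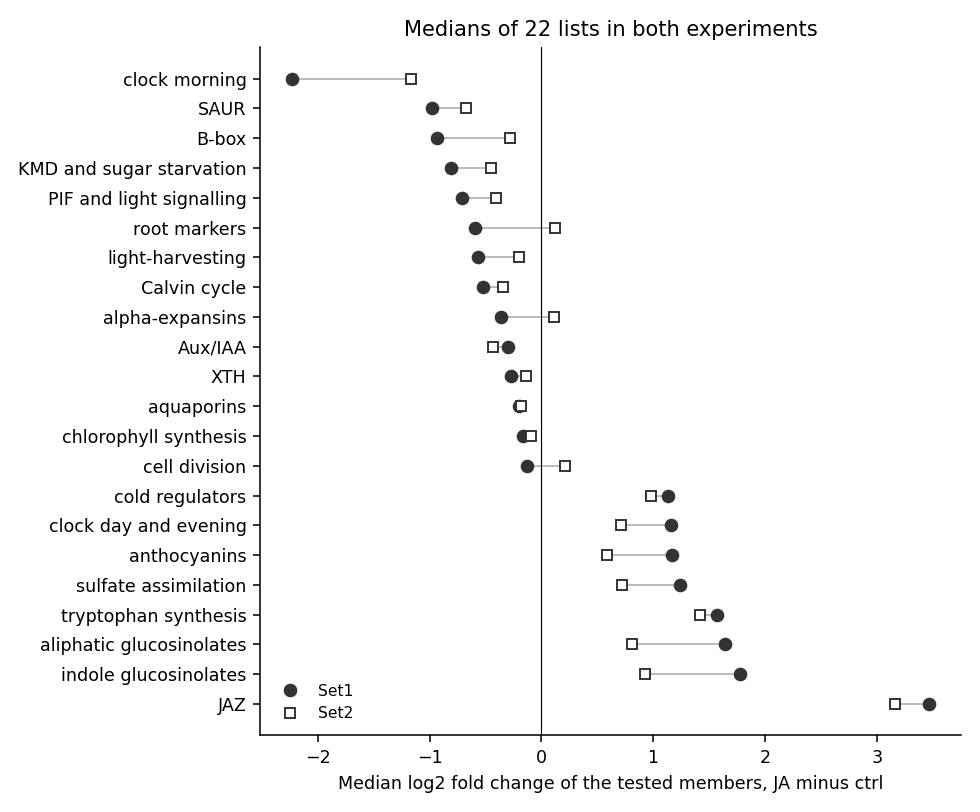
Median log2 fold change (JA minus ctrl) of the tested members of 22 lists, filled circles for Set1 and open squares for Set2, joined by a line. Morning clock genes have the lowest median in both (-2.23 and -1.17) and JAZ genes the highest (3.47 and 3.16), while the medians of root markers, alpha-expansins and cell division genes are below 0 in Set1 and above 0 in Set2.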

How the data were processed

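RNA-seq libraries were made from whole Col-0 seedlings, and the sample titles gave groups and replicate numbers. The submitters' processing notes name STAR 2.7.5a, RSEM 1.3.3, edgeR 3.36.0 and the build TAIR10. For every gene the authors deposited RSEM expected counts, estimates that split ambiguous reads and can be fractional, and TPM, which the authors scaled to transcript length and library total. Use of strand in the counting is not given in the sources used here. The deposited edgeR tables of the authors' own comparisons (fold changes, average CPM, F statistics, p-values and FDR) were not used.

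Genes of the plastid and mitochondrial genomes (285) and rRNA genes (4) were removed, leaving 32544. Expected counts were rounded, filtered with filterByExpr by group, scaled with TMM and fitted with edgeR 4.0.16 in R 4.3.3 (quasi-likelihood F test, Benjamini-Hochberg adjustment over all genes tested), in Set1 alone, in Set2 alone, and in all 10 libraries with a set by treatment interaction, which had no fold threshold. The standard error came from the fold change and its F statistic. The biological coefficient of variation of Set1 was 0.177. A gene with no count in a group was set against 3 counts over the group. Ratios on 1 to 3 counts carry exact 95% intervals, which cover counting error only.

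Members and gene lists were chosen with earlier results of these data known. Families were matched by symbol, and genes of other kinds that share a symbol were removed by their annotated product, some after the values were seen. Named genes were the 16 largest falls and 8 largest rises among called genes averaging a log2 CPM of 1 or more, up to 3 called genes of smallest adjusted p in each list (or the gene of highest CPM), MYC2, CCA1, LHY and TOC1. Any other gene with its values was chosen after these were seen. Alternatives were library totals only, RLE factors, keeping organelle and rRNA genes, DESeq2 1.42.0, no filter on low counts, limma 3.58.1 on log2(TPM + 1) or log2(TPM + 0.1), glmTreat, a 4-fold threshold, a replicate block and leaving out each library. Leaving out Set2 libraries in the Set2 fit was added after the data were seen.

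Symbols, coordinates and 250-base windows came from RefSeq TAIR10.1, in which 99.3% of 21633 genes with 1 transcript had the length given in the deposited tables. In simulated data 200 genes were changed 4-fold, all drawn from genes without low counts. The Set1 fit recovered 95% of them with 4 false calls and the Set2 fit 97% with 6. Recovery of smaller changes, or of genes with few counts, was not tested.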

Additional observations from a re-analysis of the deposited data

Results flagged for a closer look

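For 6 genes the change after JA differed between Set1 and Set2 in edgeR's test of the set by treatment interaction. The log2 fold change of BBX28 in Set1 minus that in Set2 was -1.82 (adjusted p 0.0295), with Set2 libraries at 34.8 to 40 CPM in ctrl and 16.5 to 21.9 CPM in JA. For JAC1 the difference was -1.81 (adjusted p 0.0468), and its log2 fold change was -2.93 in Set1 and -1.13 in Set2. The other 4 genes rose in Set1 and did not pass the 2-fold call in Set2, and each difference had an adjusted p of 0.0468. It was 3.25 for the glutathione transferase gene GSTF7, which stood at 4.46 and 3.7 CPM in ctrl and 25.9 and 58.1 CPM in JA in Set1, against 175 to 250 CPM in ctrl and 198 to 281 CPM in JA in Set2. It was 1.77 for its neighbour GSTF6, which was at 22.5 and 23 CPM in the Set1 controls and 172 to 186 CPM in those of Set2. It was 3.02 for the indole glucosinolate methyltransferase gene IGMT2, at 0.218 and 0.238 CPM in the Set1 controls and 20.4 to 25.9 CPM in those of Set2, and 1.41 for AT1G28600, at 24 and 23.3 CPM and 59.1 to 61.4 CPM. For these 4 genes the control levels of the experiments did not overlap. Counts of GSTF7, GSTF6 and IGMT2 were not whole in any Set1 library. With organelle and rRNA genes kept, the adjusted p-values lay between 0.0673 and 0.0926, and without ctrl replicate 2 of Set1 between 0.0988 and 0.135. Under the replicate block they lay between 0.00444 and 0.0128, and the range over all alternatives ran from 1.23e-09 (GSTF7, DESeq2) to 0.135.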

How the results depend on the processing

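The 674 rises became 285 with glmTreat, a test against a 2-fold change, and 294 at 4-fold, and the 470 falls became 120 and 115, and 228 with limma on log2(TPM + 1) without a filter. Other settings stayed within 1.5 times. Leaving out a library gave 539 to 988 rises and 347 to 609 falls. Of the listed genes, 91 rises were left at 4-fold, and 46 falls with limma without a filter, 31 with glmTreat and 30 at 4-fold. Falls made up 41.1% of the calls, 29.6% with glmTreat, 32.2% with limma without a filter and 34.3% to 42.8% in the other settings that used all libraries. The interaction called 6 genes, 0 with organelle and rRNA genes kept, 134 with DESeq2, 163 without a filter, 123 with the replicate block and 0 to 15 without a library. Set2 falls numbered 91 to 165 without a library, and those shared with Set1 70 to 120. In Set1 the deviations of same-numbered libraries correlated at 0.327 over genes, but with 2 pairs the numbers are not taken to pair the samples. With the replicate block 799 genes rose and 580 fell, 464 of the 470 falls among them, and of the 226 called genes with printed values 1 lost its call (CSD1). None of them changed direction in a setting that gave it a value (223 to 226 genes each); 92 lost the call with glmTreat, 65 with limma without a filter, 10 with organelle and rRNA genes kept, and 9 to 40 without a library. The causes were not tested. One count was worth between 0.05838 and 0.08689 CPM, which limits the size of falls to levels near it.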

Other observations

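Copper proteins were singled out after their values were seen. CSD2, the copper/zinc superoxide dismutase gene of the chloroplast, fell from 344 and 290 CPM to 74.3 and 45.1 CPM (log2 fold change -2.41, SE 0.25, adjusted p 9.6e-04 in edgeR's quasi-likelihood test), and CCS, which loads copper into the enzyme, from 55.1 and 54.9 CPM to 18.2 and 12.4 CPM (-1.85, adjusted p 0.00187). The copper transporter genes COPT1 (-1.12, adjusted p 0.00715, and 0.073 without JA replicate 2) and COPT6 (-1.37, adjusted p 0.00882) fell as well. CSD1, the cytosolic enzyme gene, fell by 1.01 (adjusted p 0.0187) and lost the call without ctrl replicate 1 or JA replicate 2 and with the replicate block. In Set2 the log2 fold changes were 0.17 for CSD2, -0.02 for CCS and 0.43 for CSD1, and the differences between the experiments did not pass (adjusted p 0.449, 0.64 and 0.688).

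Extensin genes of the cell wall, also chosen after their values were seen, fell in Set1, EXT6 by 1.56 (adjusted p 0.0119), EXT10 by 1.67 (adjusted p 0.0289) and EXT12 by 1.53 (adjusted p 0.0273, and 0.0971 without JA replicate 1), with Set2 values of 0.47, 0.27 and 0.62. The 12 root markers moved beside them, from 121 and 108 CPM in ctrl to 67.8 and 85.9 CPM in JA, and their part in these values was not tested. The genes ADH1 and HB1, chosen after their values were seen, had JA libraries that lay far apart. ADH1, alcohol dehydrogenase, stood at 6.73 and 9.73 CPM in ctrl and 30.3 and 85.3 CPM in JA (2.82, adjusted p 0.00882), and HB1, a haemoglobin gene, at 7.06 and 4.61 CPM in ctrl and 17.4 and 45.8 CPM in JA (2.44, adjusted p 0.0142). In Set2 their log2 fold changes were 0.53 and 0.01, and the differences did not pass (adjusted p 0.534 and 0.399).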
